A study of Mus musculus with 9 samples.

Results

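*Serpinb9* and the other clade B serpins were followed across embryonic mouse hearts in which the gene for the chromatin protein CTCF had been deleted from both alleles, from 1 allele or from neither. The members were all genes of the deposited table whose symbol begins with Serpinb. The table held 6 of them among 14011 genes: *Serpinb1a*, *Serpinb6b*, *Serpinb9*, *Serpinb9b* and *Serpinb6a* in a cluster on chromosome 13, and *Serpinb8* in a cluster on chromosome 1. The annotation of the same mouse build (NCBIM37) lists 28 Serpinb genes, 16 on chromosome 13 and 12 on chromosome 1, of which 2 are pseudogenes. The other 22, 11 on each chromosome, had no row and were not analysed here. *Serpinb9* was chosen by its measured values, a rise in homozygotes against heterozygotes, so its values are given as a description without a test.

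Serpins are inhibitors of proteases that act as bait. The target protease cuts an exposed loop near the C-terminal end of the serpin, the reactive loop, and the serpin then folds around the cut and traps the enzyme. The sequence of that loop largely sets which protease is caught. Clade B serpins differ from most of the family in that they lack a classical secretion signal and work mainly inside the cell, where they guard the cytosol against proteases that leak from granules or lysosomes. They are best known in blood and immune cells and in epithelia. CTCF is a zinc finger protein that binds DNA and shapes chromatin loops.

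All hearts were taken at E10.5, and each of the 9 libraries was made from a pool of 6 hearts on a mixed strain background. Homozygotes were *Ctcf* fl/fl; *Nkx2.5-Cre*/+ and heterozygotes were *Ctcf* fl/+; *Nkx2.5-Cre*/+. Controls carried floxed *Ctcf* without Cre, as fl/fl in the labels and as fl/+ in the study's methods for RNA-seq. Its section on mouse strains names either genotype for controls. Treatment was none in any group. *Nkx2.5-Cre* recombines in cells with a history of *Nkx2.5* expression, mainly heart muscle and its progenitors, so blood and other cell types in the pools can keep intact *Ctcf*. There were 3 libraries in each group, and nothing in the sources says whether the pools of a group came from separate litters.

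Total reads ranged from 4294537 to 11629365 for each library. The deposited value of a gene is its read count plus 0.5, scaled to a common library size, and 1 read was worth from 0.0901 to 0.231 of these units. The column names of controls and heterozygotes in the table differ from the sample titles, the columns taken as controls are named Het, and all values of these 2 groups rest on that assignment. *Ctcf* itself stood in the order of the genotypes so assigned. Homozygotes were at 81.4 ± 2.85 (SD, n = 3), heterozygotes at 97.3 ± 3.26 and controls at 121 ± 0.84, with no overlap between the groups. Heart muscle was present in every pool, with all 8 cardiomyocyte markers measured. Their summed value was 11440 to 14714 in homozygotes, 13239 to 15906 in controls and 15295 to 18381 in heterozygotes. Of the 8, 4 were called lower in homozygotes against heterozygotes (the myosins *Myh6* and *Myh7*, *Actn2* and *Nppa*, log2 fold changes -0.61 to -0.51) and 2, *Actn2* and *Nppa*, against controls, where 8.03% of all genes were called lower (6.7% against heterozygotes). The other 6 did not pass against controls. Of these, *Ttn*, *Myh6* and *Myh7* gave -0.63, -0.36 and -0.32 there, and *Tnnt2*, *Myl7* and *Myl2* gave 0.13, 0.05 and 0.08. When 1 library was left out, *Actn2* kept its call against heterozygotes in all 9 fits. *Myh6* lost it without homozygote replicate 1 or 3 or the heterozygous library of 7946683 or 4294537 reads (-0.59 to -0.44), *Myh7* without replicate 3 (-0.48) or the library of 7946683 reads (-0.46) and *Nppa* without that of 4294537 reads (-0.50). Against controls *Actn2* lost its call in 4 of these fits (homozygote replicate 1 or 3, control library of 9654014 or 6698891 reads) and *Nppa* in 7, all but those without replicate 1 or the control library of 8457617 reads. Markers of other cell types were called too. All 5 erythroid markers passed the test as higher in homozygotes against both other groups, and their summed value was 49647 to 65417 in homozygotes against 28251 to 40177 in controls and 22541 to 37774 in heterozygotes. Without the control library of 6698891 reads *Hbb-y*, *Hbb-bh1*, *Hba-x* and *Alas2* missed the threshold against controls (log2 fold changes 0.47 to 0.71), *Alas2* and *Hbb-y* also without homozygote replicate 3, *Alas2* as well without replicate 2 or the control library of 9654014 reads. After quantile normalization *Hbb-y* and *Hba-x* missed it in both comparisons and *Hbb-bh1* against controls. The epicardial list had 3 of 5 genes called higher in both comparisons, beside 7.19% of all genes called higher against controls and 6.87% against heterozygotes. Of these calls, that of *Upk3b* against heterozygotes was lost in limma without the mean-variance trend. All 5 markers of cytotoxic lymphocytes, the best known users of *Serpinb9*, were without a row. The macrophage and myeloid list, which clade B serpins are also linked to, had 8 of 8 markers measured, with a summed value of 46.6 to 59.9 in controls, 33.0 to 36.4 in heterozygotes and 22.5 to 50.1 in homozygotes. Of that list only *Lyz2*, the macrophage lysozyme, was called, lower in homozygotes in both comparisons, and its call against heterozygotes held in 1 of 9 fits with a library left out, that without homozygote replicate 3. The part of these cell types in the values of the serpins was not tested, and in bulk hearts fewer cells of a type and less RNA per cell cannot be told apart.

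The reactive loop shows how the members differ from each other. For each, 60 coding bases are given, from the conserved hinge that opens the loop onward. The capitals mark the 12 bases of the hinge, and the 48 bases in lower case cover the stretch that meets the protease.
Serpinb9: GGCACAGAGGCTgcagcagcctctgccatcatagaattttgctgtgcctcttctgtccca
Serpinb9b: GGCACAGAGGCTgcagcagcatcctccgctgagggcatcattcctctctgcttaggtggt
Serpinb6b: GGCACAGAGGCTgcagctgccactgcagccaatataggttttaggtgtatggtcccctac
Serpinb6a: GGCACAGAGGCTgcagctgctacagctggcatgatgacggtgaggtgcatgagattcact
Serpinb1a: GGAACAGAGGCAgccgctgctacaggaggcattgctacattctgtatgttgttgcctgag
Serpinb8: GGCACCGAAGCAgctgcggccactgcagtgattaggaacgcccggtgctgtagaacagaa
The hinge of *Serpinb6b*, *Serpinb9b* and *Serpinb6a* was the same as that of *Serpinb9* in 12 of 12 bases, against 10 in *Serpinb1a* and 9 in *Serpinb8*. After the hinge, only 18 to 20 of 48 positions matched *Serpinb9* in any member. *Serpinb9b* is the nearest relative of *Serpinb9* and is 85.3% identical over the coding sequence, yet it shared only 19 of the 48 loop positions. Over the coding sequence the identity with *Serpinb9* was 66.4% for *Serpinb6b*, 66.1% for *Serpinb8*, 62.8% for *Serpinb6a* and 57.8% for *Serpinb1a*. Stretches of 50 bases shared with the protein-coding transcripts of any other annotated gene made up 0.378% of *Serpinb9* and 2.45% of *Serpinb6b*. Little of either gene is thus identical to a protein-coding relative over that length, and pseudogenes were not searched. The share was highest in *Serpinb1a* at 3.19%, where the partners are *Serpinb1b* and *Serpinb1c*.

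*Serpinb9* is the inhibitor of granzyme B, the protease with which cytotoxic lymphocytes kill their targets, and it protects those cells and some of their neighbours from it. The gene (ENSMUSG00000045827) lies on chromosome 13 from 33095119 to 33109826 on the plus strand. The control libraries of 8457617, 9654014 and 6698891 reads gave it a value of 9.72, 9.81 and 12.2. Among heterozygotes, the libraries of 9896345, 7946683 and 4294537 reads gave 9.17, 6.12 and 7.96. Homozygote replicates 1, 2 and 3 gave 31.7, 36.3 and 31.8. All homozygous libraries lay far above all other libraries, and the lowest of them held more than the highest control and the highest heterozygote together. Between 34 and 353 reads stood behind each value.

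The mean of *Serpinb9* was 33.3 ± 2.63 in homozygotes, 10.6 ± 1.41 in controls and 7.75 ± 1.54 in heterozygotes. Homozygotes were thus at 4.29 times the heterozygous mean and at 3.15 times the control mean. On the log2(value + 0.5) scale the difference was 2.05 (standard error 0.15) against heterozygotes, the contrast by which the gene was chosen, and 1.61 (0.15) against controls, which uses the same homozygous libraries. By size of log2 fold change *Serpinb9* ranked 16 of 14011 genes from the top against heterozygotes and 41 against controls. The heterozygotes, whose libraries also entered that choice, lay below the controls in all 3 libraries. Their log2 fold change against controls was -0.44, given without a test for that reason.

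*Serpinb6b* is a mouse paralogue of the *SERPINB6* type, in a group of inhibitors of trypsin-like and granule proteases. The gene (ENSMUSG00000042842), on the plus strand of chromosome 13 from 33057182 to 33070936, is the next annotated gene of the family before *Serpinb9*, with 24182 bases between the end of the first and the start of the second. Its value was 18.1, 17.1 and 14.98 in controls, 14.5, 15.5 and 14.6 in heterozygotes and 4.43, 8.55 and 8.51 in homozygotes, with the libraries in the order given for *Serpinb9*. All homozygous libraries lay below all others, and replicate 1, with 19 reads for the gene, was the lowest.

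*Serpinb6b* therefore moved the opposite way from its neighbour. The mean fell from 16.7 ± 1.59 in controls and 14.9 ± 0.53 in heterozygotes to 7.16 ± 2.37 in homozygotes, which is 42.8% of the control and 48.2% of the heterozygous mean. The log2 fold change was -1.22 against controls (95% interval -1.65 to -0.79, limma adjusted p = 0.0015) and -1.06 against heterozygotes (-1.48 to -0.63, limma adjusted p = 0.00387). Both calls held when replicate 1 was left out, with log2 fold changes of -0.93 and -0.77. Heterozygotes against controls gave -0.16 (95% interval -0.59 to 0.26, limma adjusted p = 0.922).

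**Figure D1:**
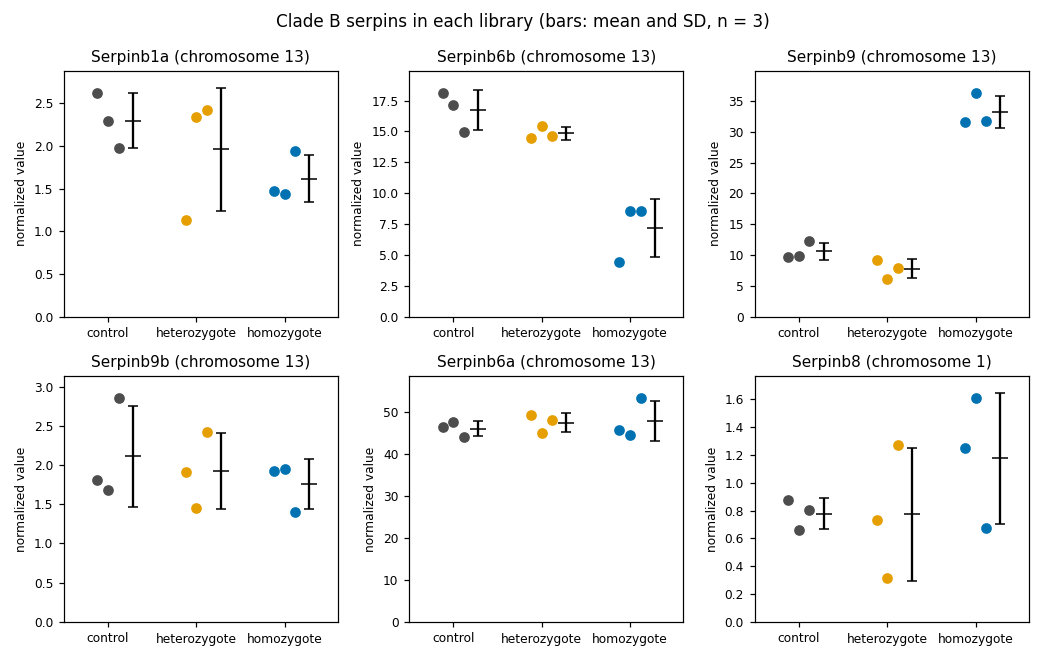
Normalized value of each measured clade B serpin (y axis, from 0, with its own scale in each panel) in the 3 control, 3 heterozygous and 3 homozygous libraries (points), with mean and SD beside them. *Serpinb9* sits between 31.7 and 36.3 in homozygotes and between 6.12 and 12.2 elsewhere, *Serpinb6b* is at 8.55 or lower in homozygotes and at 14.5 or higher elsewhere, and *Serpinb6a* is at 44.2 to 53.4 throughout.

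The ratio of the 2 neighbours was then taken in each library. The value of *Serpinb9* over that of *Serpinb6b* was 0.54, 0.57 and 0.81 in controls and 0.63, 0.40 and 0.54 in heterozygotes. It was 7.15, 4.25 and 3.74 in homozygotes. *Serpinb6b* was thus the more abundant of the pair in all 6 control and heterozygous libraries, and *Serpinb9* in all 3 homozygous libraries.

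*Serpinb6a*, a broadly expressed member that can inhibit cathepsin G, lies at the far end of the same cluster (ENSMUSG00000060147, chromosome 13 from 34009787 to 34094663, minus strand). Its value was 46.6, 47.6 and 44.2 in controls, 49.4, 45.0 and 48.1 in heterozygotes and 45.8, 44.6 and 53.4 in homozygotes. The groups overlapped. The log2 fold change was 0.05 against controls (95% interval -0.12 to 0.22, limma adjusted p = 0.734) and 0.01 against heterozygotes (-0.16 to 0.18, limma adjusted p = 0.956), so a shift of the size seen in either *Serpinb9* or *Serpinb6b* lies outside these intervals. On the opposite strand, exons of *Nqo2* cover 14.1% and those of *Ripk1* 4.46% of its exonic bases, and the sources do not say whether the counting used strand.

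The other 3 members were close to the floor of the table. *Serpinb1a* (ENSMUSG00000044734, chromosome 13 from 32933961 to 32943054, minus strand), an inhibitor of neutrophil elastase, proteinase 3 and cathepsin G, had 6 to 22 reads in each library. Its value was 2.62, 2.29 and 1.97 in controls, 1.13, 2.33 and 2.42 in heterozygotes and 1.48, 1.44 and 1.94 in homozygotes. All homozygotes lay below all controls, but the log2 fold change of -0.40 did not pass the test (95% interval -0.999 to 0.20, limma adjusted p = 0.368).

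*Serpinb9b* (ENSMUSG00000021403, chromosome 13 from 33119285 to 33133753, plus strand) starts 9458 bases after the end of *Serpinb9*. It had 8 to 19 reads in each library, with a value of 1.80, 1.68 and 2.85 in controls, 1.91, 1.45 and 2.42 in heterozygotes and 1.93, 1.95 and 1.40 in homozygotes. The groups overlapped, and the log2 fold change was -0.19 against controls (95% interval -0.77 to 0.39, limma adjusted p = 0.687). The interval ends well short of the 1.61 seen in *Serpinb9*, the gene next to it and nearest to it in sequence.

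*Serpinb8* (ENSMUSG00000026315, chromosome 1 from 109486583 to 109505486, plus strand), an inhibitor of the convertase furin, had 2 to 9 reads in each library. Its value was 0.87, 0.66 and 0.80 in controls, 0.74, 0.32 and 1.27 in heterozygotes and 1.25, 1.61 and 0.68 in homozygotes. The log2 fold change against controls was 0.35 with a 95% interval from -0.42 to 1.12 (limma adjusted p = 0.559). The interval holds both no change and a rise of that upper size.

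Over the 6 members, 2 were called at an adjusted p under 0.05 in homozygotes against controls, where 15.2% of all genes were called. Apart from *Serpinb9* that is 1 of 5, *Serpinb6b*, which was lower, as were 8.03% of all genes against 7.19% called higher. Against heterozygotes the same 2 were called beside 13.6% of all genes (6.87% higher and 6.7% lower), in the contrast the choice rests on. The libraries of the compared groups did not overlap for 3 members against controls and for 2 against heterozygotes, where the share over all genes was 33.2% and 30.8%. In heterozygotes against controls 0 of the 6 were called with limma, edgeR or DESeq2, beside 0.143% of all genes with limma, and 1 had an unadjusted p under 0.05. That 1 was *Serpinb9*, whose heterozygous values were part of its choice, and nothing is read from it. Its libraries did not overlap, as for 14.3% of all genes. The median log2 fold change over the 6 was -0.07 against controls, where that of all genes was -0.0011.

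**Figure D2:**
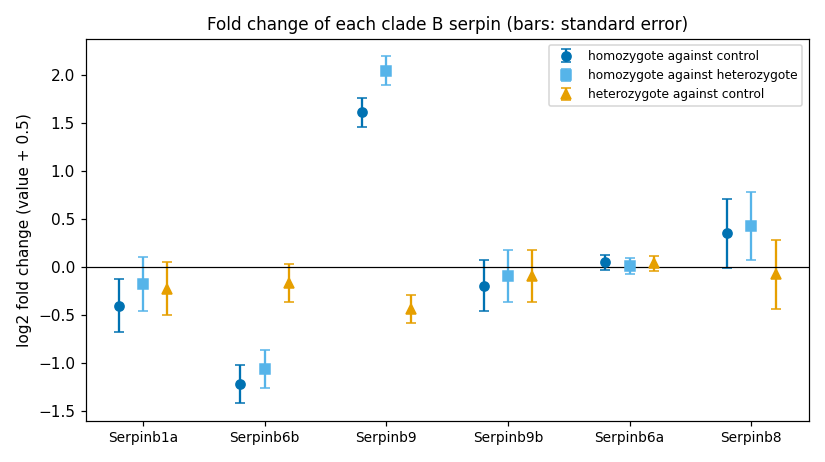
Log2 fold change on the log2(value + 0.5) scale (y axis) of the 6 clade B serpins (x axis, in order along chromosome 13, then chromosome 1) in the 3 comparisons (symbols), with bars of 1 standard error. *Serpinb9* is at 1.61 and 2.05 and *Serpinb6b* at -1.22 and -1.06 in the comparisons with homozygotes, while all other points lie between -0.44 and 0.43.

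Levels were compared between members per kilobase of exonic length. In controls the order was *Serpinb6a* (8.53 ± 0.32 value units per kilobase, SD, n = 3), *Serpinb6b* (8.01 ± 0.76), *Serpinb9* (3.03 ± 0.40), *Serpinb1a* (1.18 ± 0.17), *Serpinb9b* (0.65 ± 0.20) and *Serpinb8* (0.24 ± 0.03), and the libraries of the first 2 overlapped. *Serpinb6a* and *Serpinb6b* were near the middle of all genes, whose median was 6.56, and *Serpinb9* was at the 30.8th percentile. In heterozygotes the order was the same, and the only neighbours that overlapped were *Serpinb1a* and *Serpinb9b*. In homozygotes *Serpinb9* stood first at 9.52 ± 0.75, overlapping *Serpinb6a* at 8.86 ± 0.88, and *Serpinb6b* followed at 3.43 ± 1.13.

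The make-up of the family and its sum were then taken. Per kilobase, *Serpinb9* made up 14.03% ± 2.28 (SD, n = 3) of the 6 members in controls, 11.1% ± 1.98 in heterozygotes and 40.5% ± 3.14 in homozygotes. *Serpinb6b* made up 37.0% ± 2.49, 35.7% ± 2.44 and 14.4% ± 3.85 in the same order. The sum of the 6 was 21.0 to 22.2 in controls, 19.2 to 20.6 in heterozygotes and 21.4 to 24.7 in homozygotes, so homozygotes overlapped the controls and lay above all heterozygotes. Without division by length the sum was 77.0 to 79.7, 70.6 to 76.8 and 86.5 to 97.7 in the same order, with homozygotes above all other libraries. These shares and sums include *Serpinb9*, chosen by its rise in these libraries, so nothing is read from the order of the groups in them.

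**Figure D3:**
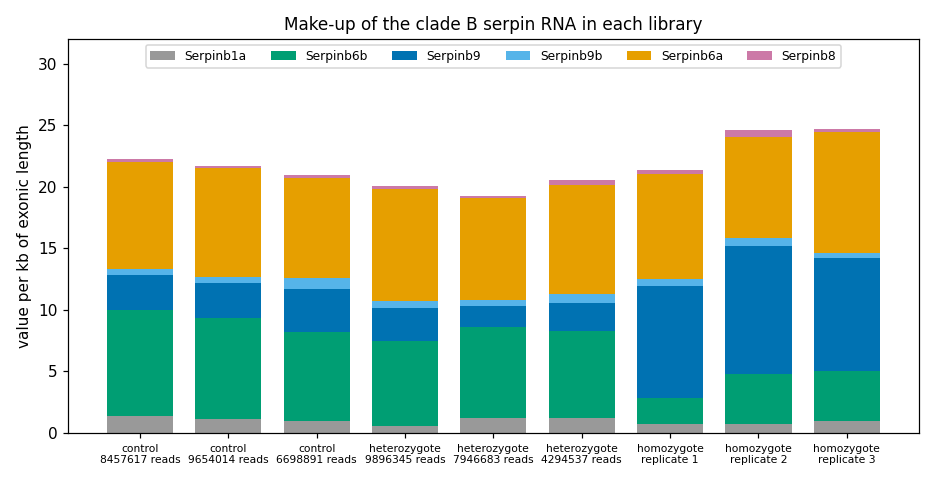
Value per kilobase of exonic length (y axis, from 0) of the 6 clade B serpins, stacked, in each of the 9 libraries (x axis). The *Serpinb9* layer takes 36.9% to 42.4% of the bar in homozygotes and 9.12% to 16.7% elsewhere, while the bars differ less in height, from 19.2 to 24.7.

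The genome around the pair was then read. The promoters of 3 members are shown, each as the 250 bases before the RefSeq start site. They were taken because *Serpinb6b* fell, *Serpinb9* rose and *Serpinb9b* beside it, with few reads, was called in neither direction. The sequences come from the RefSeq promoter table (GRCm38.p6) and were placed on NCBIM37 by an exact match, plus strand. Capitals mark a match to the CTCF core consensus in *Serpinb6b* and in *Serpinb9* a match to the interferon response type of motif, GAAA and after any 2 bases GAAA again.
Serpinb6b, chr13:33056880-33057129: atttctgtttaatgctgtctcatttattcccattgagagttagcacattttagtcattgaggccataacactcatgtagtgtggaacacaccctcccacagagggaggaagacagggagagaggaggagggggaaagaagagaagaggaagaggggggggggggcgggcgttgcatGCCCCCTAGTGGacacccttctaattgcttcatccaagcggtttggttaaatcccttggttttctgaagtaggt
Serpinb9, chr13:33096160-33096409: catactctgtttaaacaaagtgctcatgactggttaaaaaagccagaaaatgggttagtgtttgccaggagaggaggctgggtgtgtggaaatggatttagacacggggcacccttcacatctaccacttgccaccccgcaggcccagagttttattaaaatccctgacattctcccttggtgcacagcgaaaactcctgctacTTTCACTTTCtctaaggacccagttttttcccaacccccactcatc
Serpinb9b, chr13:33119033-33119282: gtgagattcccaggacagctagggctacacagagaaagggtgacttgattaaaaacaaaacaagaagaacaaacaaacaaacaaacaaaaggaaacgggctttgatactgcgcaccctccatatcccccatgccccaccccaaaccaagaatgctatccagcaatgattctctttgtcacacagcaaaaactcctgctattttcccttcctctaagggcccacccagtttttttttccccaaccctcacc
Each promoter was searched on both strands over 300 bases, with the 50 after the start included, for the CTCF core consensus, the interferon response type of motif and TATAAA. These motifs were picked after the sequences had been seen. *Serpinb6b* held a match to the CTCF core consensus on the minus strand, 74 bases before the start site, and 0.557% of 32851 promoters hold one. *Serpinb9* held none of it and a match to the interferon response type of motif 46 bases before the start site, as do 3.44% of promoters. *Serpinb6a*, whose level did not pass the test, held a match of the same type 84 bases before a start site, so this motif is not particular to the member that rose. The promoters of 5 of the 6 members were matched in the table, all but that of *Serpinb1a*. *Serpinb9b* held none of the 3 motifs, and its promoter was 57.4% identical to that of *Serpinb9*. TATAAA, present in 13.6% of promoters, was in none of the 3. *Serpinb9* has a second annotated start, at 33095119, before the RefSeq start at 33096410.

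The window from 10 kb before *Serpinb6b* to 10 kb after *Serpinb9* spans 72.6 kb and held 2 matches to the CTCF core consensus. Of the 1614 windows of that size along chromosome 13, 6.01% held at least as many. The first is the promoter match above. The second lies between the 2 genes at chr13:33075179-33075190 on the minus strand and is shown in capitals with 10 bases before it and a shorter stretch after: agtatagctaGCCACCTGCTGGataagtga. The whole cluster held 11 matches over 1161 kb, or 9.48 per megabase, against 4.33 per megabase over chromosome 13. These are matches of letters, and CTCF binding in these hearts was not analysed here.

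Genes around the cluster moved less than the pair. Of the 16 nearest measured genes that are no clade B serpins, 8 on each side, 1 was called higher and 3 lower against controls, and 1 higher and 2 lower against heterozygotes, with a median log2 fold change of -0.03 and 0.09. These 4 and 3 of 16 stand beside 15.2% and 13.6% of all genes, and nothing particular to the neighbours is read from them. *Wrnip1*, which acts at stalled replication forks and is the nearest measured gene before the cluster, had a mean of 53.6 in homozygotes, 40.9 in controls and 37.7 in heterozygotes. Its log2 fold change was 0.39 against controls (limma adjusted p = 0.0109) and 0.50 against heterozygotes (limma adjusted p = 0.00312). The first call was lost without the control library of 6698891 reads (0.34, limma adjusted p = 0.0567).

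After the cluster, the beta tubulins *Tubb2a* and *Tubb2b* fell. *Tubb2a* was at 55.3, 54.1 and 59.4 in controls, 49.7, 53.2 and 46.9 in heterozygotes and 36.7, 36.5 and 42.2 in homozygotes, with a log2 fold change of -0.55 against controls and -0.37 against heterozygotes. *Tubb2b* gave -0.41 and -0.48. The limma adjusted p of these 4 differences was between 0.00064 and 0.00877. The transporter gene *Slc22a23* was called against controls only (-0.33, limma adjusted p = 0.0216), and that call was lost without homozygote replicate 3 (-0.28), the control library of 8457617 reads (-0.28) or that of 6698891 reads (-0.33).

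Inside the cluster span, *Nqo2* showed a log2 fold change of 0.01 against controls and 0.06 against heterozygotes, and neither passed the test (limma adjusted p = 0.977 and 0.715). *Ripk1*, the kinase of cell death signalling that overlaps *Serpinb6a*, was called against heterozygotes (0.33, limma adjusted p = 0.0487) but not against controls (0.30, limma adjusted p = 0.0594). That call held only without homozygote replicate 1 and without the control library of 6698891 reads, and in the other 7 such fits it was lost (0.27 to 0.41 over all 9). Of the 16 nearest measured genes around the chromosome 1 cluster, 3 were called in homozygotes against each other group, near the 15.2% and 13.6% of all genes. *Bcl2*, the inhibitor of apoptosis, fell by 0.52 on the log2 scale against controls (log2 fold change -0.52, limma adjusted p = 0.00181). Against heterozygotes its -0.31 (limma adjusted p = 0.0317) was lost without any 1 of the heterozygous libraries or homozygote replicate 3 (down to -0.24). The phosphatase gene *Phlpp1* was called lower in both comparisons (-0.41 and -0.39), the Hedgehog transcription factor *Gli2* lower against heterozygotes (-0.67) and *Inhbb*, an activin subunit, higher against controls (1.15). Each of these calls was lost in some fits that left out 1 library. For *Phlpp1* these were the fits without any 1 homozygote replicate, without the control library of 9654014 or 6698891 reads (against controls, -0.54 to -0.34 over all 9 fits) or without any 1 heterozygous library (against heterozygotes, -0.44 to -0.33). For *Gli2* they were all but those without homozygote replicate 1 or the heterozygous library of 4294537 reads (-0.87 to -0.48 over all 9 fits). For *Inhbb* they were those without homozygote replicate 2 or 3 or any 1 control library (0.98 to 1.27 over all 9 fits). *Inhbb* lay near the floor, with 3 reads in each control library. Its mean was 0.42 in controls, 1.15 in heterozygotes and 1.59 in homozygotes.

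**Figure D4:**
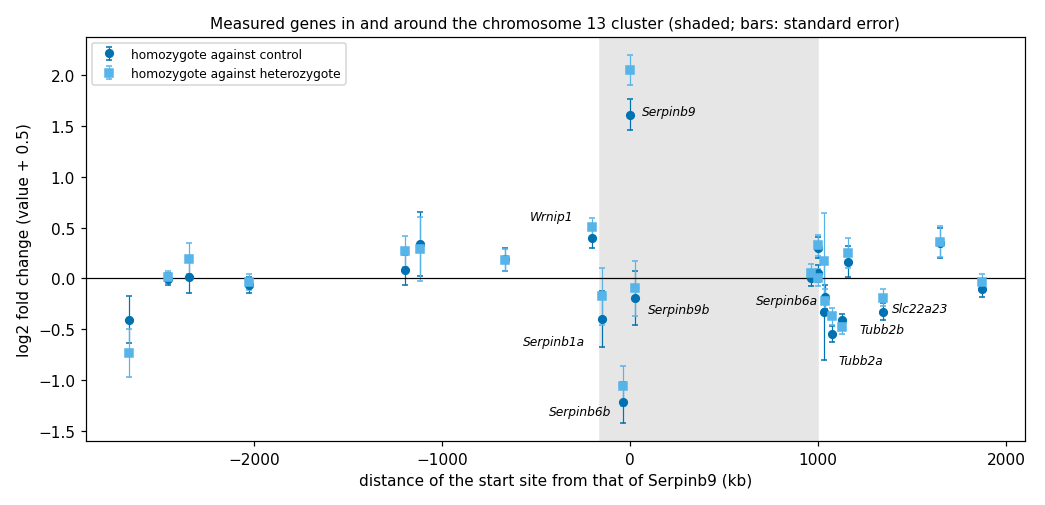
Log2 fold change on the log2(value + 0.5) scale (y axis, bars of 1 standard error) of the measured genes in and around the chromosome 13 serpin cluster (shaded) against the distance of their start site from that of *Serpinb9* in kilobases (x axis), in homozygotes against controls (circles) and against heterozygotes (squares). *Serpinb9* and *Serpinb6b*, side by side, stand at 1.61 and -1.22 against controls, while the 18 genes of other families lie between -0.55 and 0.39. Against heterozygotes the pair is at 2.05 and -1.06 and the 18 lie between -0.73 (*Agtr1a*, which did not pass) and 0.50.

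The proteases that clade B serpins are known to inhibit were looked up as a list of 20 genes, of which 9 had a row. The granzymes *Gzma*, *Gzmb*, *Gzmk* and *Gzmm*, and with them the textbook target of *Serpinb9*, were without a row, as were *Elane*, *Ctsg*, *Casp1*, *Cma1*, *F2*, *Tpsb2* and *Tpsab1*. Of the 9, 1 was called higher against controls, and 1 higher and 1 lower against heterozygotes, beside 15.2% and 13.6% of all genes, so these counts say nothing particular to the proteases. *Ctsb*, the lysosomal protease cathepsin B, was at 351, 297 and 304 in controls, 307, 366 and 299 in heterozygotes and 408, 430 and 414 in homozygotes. The homozygotes lay above all other libraries, and the log2 fold change was 0.40 against controls (limma adjusted p = 0.00586) and 0.37 against heterozygotes (limma adjusted p = 0.00939). The second call was lost in limma without the mean-variance trend.

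*Furin*, the target of *Serpinb8*, was at 120, 108 and 93.8 in homozygotes against 131, 129 and 124 in heterozygotes. The call of its log2 fold change of -0.26 (limma adjusted p = 0.0484) was lost in 6 of the 9 fits that left out 1 library. These were the fits without any 1 heterozygous library, homozygote replicate 2 or 3 or the control library of 9654014 reads. Over all 9 fits the log2 fold change lay between -0.35 and -0.17. The other 7, *Prtn3* (proteinase 3), *Plau* and *Plat* (the plasminogen activators), *Ctsl*, *Ctss* and *Ctsk* (cathepsins) and *Klk8* (a kallikrein), did not pass in any comparison. Their log2 fold changes against controls were between -0.26 and 0.25.

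Serpins of the other clades, mostly secreted, gave 12 genes with a row. Against controls 0 of the 12 were called with limma, edgeR or DESeq2, 1 had an unadjusted p under 0.05 with limma, and the median log2 fold change was 0.03, where 15.2% of all genes were called. The collagen chaperone *Serpinh1* and the protease nexin *Serpine2*, the highest of the 12, stood at 831 to 1005 and at 80.6 to 99.5 in all 9 libraries. Against heterozygotes *Serpina1a* (alpha-1 antitrypsin) and *Serpinf2* (alpha-2 antiplasmin), both chiefly products of the liver, were called higher (log2 fold change 1.73 and 2.42, limma adjusted p = 0.0393 and 0.0448). Heterozygotes had 0 reads of *Serpina1a* in all 3 libraries and 0 or 1 of *Serpinf2*, so both log2 fold changes depend on the pseudocount. Both calls were lost with a pseudocount of 1 and without the trend, that of *Serpina1a* also with DESeq2 and that of *Serpinf2* with voom. These 2 of 12 stand beside 13.6% of all genes called in that comparison. *Serpinf2* was at 7.61 and 6.44 in homozygote replicates 1 and 3 but at 0.25 in replicate 2, and at 0.12 to 0.19 in heterozygotes and 2.56 to 13.2 in controls. The summed value of 5 liver and visceral endoderm markers went the same way, with 65.3 and 73.8 in replicates 1 and 3, 6.35 in replicate 2, 6.34 to 16.0 in heterozygotes and 60.3 to 919 in controls. Its part in these 2 calls was not tested. Both calls were lost in 6 of the 9 fits that left out 1 library, those without any 1 heterozygous library, without homozygote replicate 1 or 3, and without 1 control library (that of 9654014 reads for *Serpinf2*, that of 6698891 reads for *Serpina1a*). Over all 9 fits the log2 fold changes ran from 1.82 to 3.53 for *Serpinf2* and from 1.31 to 2.26 for *Serpina1a*.

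**Figure D5:**
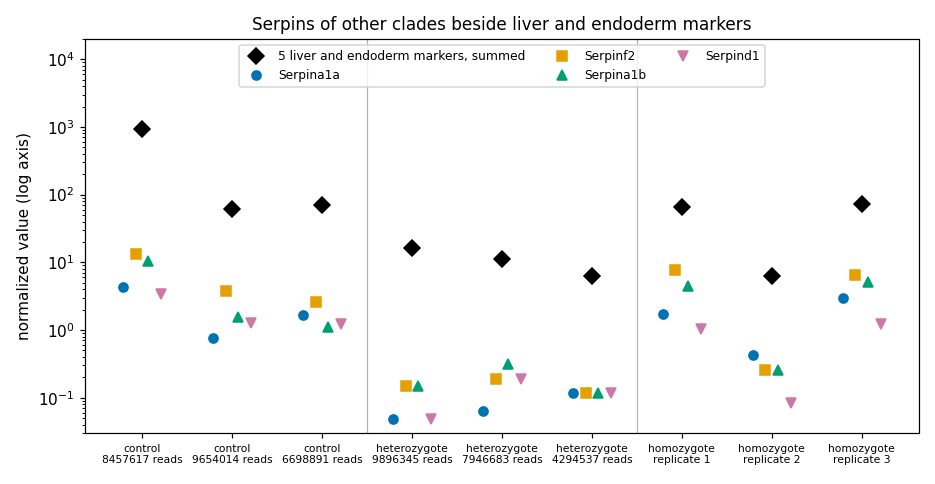
Normalized value (y axis, log scale) of 4 serpins made mainly in the liver and the summed value of 5 liver and endoderm markers (diamonds) in each of the 9 libraries (x axis, groups parted by lines). The control library of 8457617 reads is highest in what is plotted, with a marker sum of 919. Homozygote replicate 2 lies at 6.35 beside the heterozygotes at 6.34 to 16.0. *Afp* gave 595 of that 919, and *Ttr*, *Apoa1* and *Apob* were also highest in that control library. *Alb* went the other way, at 0.17 there against 4.73 and 5.34 in the other controls. So did *Serpina6*, which is not plotted, at 0.17 against 2.08 and 3.29.

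The genes whose levels followed that of *Serpinb9* most closely over the 9 libraries were *Zfhx2* (Pearson r = 0.99), *Amigo2* (0.98), *6330512M04Rik* (0.97), *Mzt1* (0.97) and *Ostc* (0.97), out of 11127 genes whose mean value reached 5. These points share their libraries and the split between homozygotes and the rest, and the r is a description. None of the 5 is on chromosome 13. *Zfhx2*, a zinc finger homeobox gene on chromosome 14, was at 25.5 ± 1.42 (SD, n = 3) in homozygotes, 15.01 ± 1.26 in controls and 13.5 ± 1.44 in heterozygotes. *Amigo2*, a membrane adhesion gene on chromosome 15, was at 11.9 ± 0.90, 6.49 ± 0.35 and 5.91 ± 0.37 in the same order. *6330512M04Rik* on chromosome 7 differed most of the 5, with 19.4 ± 2.01 in homozygotes against 3.78 ± 0.21 in controls and 3.49 ± 0.37 in heterozygotes.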

How the data were processed

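RNA-seq was performed on 9 libraries, 3 in each of 3 genotypes. The authors deposited 1 table of normalized signal values per gene, (whole reads + 0.5) scaled to an effective library size, made on the transcriptome of NCBIM37 with Ensembl 65, and genes with low values were left out. The submitters' processing notes name CASAVA 1.8, cutadapt 1.6.1, RSEM 1.20, Bowtie2 0.12.7 and limma, with no role or order. From these signal values whole reads were recovered for 100% of values, within 0.02 reads. Totals ran from 4294537 to 11629365 reads, and replicates differed by more than sampling noise. The p-values judge differences between groups against the spread between replicate pools, and the 95% intervals use the 13.4 degrees of freedom of the fit. The study calls the pools biological replicates, and part of their spread may be technical.

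The columns of homozygotes follow the titles. Those of the other groups carry names that differ from the titles, and their libraries are named by total reads. Columns named DH were taken as heterozygotes, since the labels speak of double heterozygous hearts. Columns named Het were taken as controls although that name resembles the titles of heterozygotes, because they are the remaining columns, the study's controls carry floxed *Ctcf* without Cre and the study's own control averages equal their means. The labels alone do not settle this.

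Values were tested with limma 3.58.1 (R 4.3.3) on log2(value + 0.5) with a mean-variance trend, all 9 libraries and 14011 genes in 1 fit, and Benjamini-Hochberg adjustment over all genes. Fold changes on this scale understate those of low genes. Scripts were tested on simulated counts. Alternatives were pseudocounts of 0.1 and 1, filters on low values, quantile normalization, no trend, edgeR 4.0.16, DESeq2 1.42.0 and voom on recovered reads, only the 2 groups compared, an adjusted p under 0.01, a replicate block and leaving out each library.

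Every measured Serpinb gene was named. Of the other lists (other serpins, target proteases and the 8 nearest measured genes on each side of each cluster) the genes called in any comparison were named, and all measured target proteases. The 5 genes most like *Serpinb9* were those with the highest Pearson r on the log2 scale among genes whose mean value reached 5. The members and lists were chosen with earlier results of these data known. Besides the lists given in the report, markers of endothelial and endocardial cells (1 of 7 called higher and 1 lower against controls), cushion mesenchyme (0 of 5 higher, 1 lower), cardiomyocytes (0 of 8 higher, 2 lower), epithelium (1 of 4 measured called higher) and trophoblast (0 of 2 measured called in any comparison, with 1 at an unadjusted p under 0.05 against heterozygotes and 0 against controls) were examined with limma, where 7.19% of all genes were called higher and 8.03% lower against controls. Against heterozygotes 1 endothelial, 1 cushion and 4 cardiomyocyte markers were called lower and 0 higher, beside 6.7% and 6.87% of all genes. Genome positions are from the GENCODE annotation of NCBIM37, which placed 13987 of the genes.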

Additional observations from a re-analysis of the deposited data

How the results depend on the processing

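The number of clade B serpins called stayed at 2 in homozygotes against controls, 2 in homozygotes against heterozygotes and 0 in heterozygotes against controls under all 21 alternatives, the fits that left out 1 library included (2 to 2, 2 to 2 and 0 to 0). One of the pair is *Serpinb9*, chosen by its rise in these libraries, which makes its share of the count no support, and of the other 5 members 1, *Serpinb6b*, was called. Over these the log2 fold change of *Serpinb6b* ran from -1.37 to -0.93 against controls (adjusted p 3.47e-06 to 0.0163) and from -1.20 to -0.77 against heterozygotes (0.000191 to 0.0305), and that of *Serpinb9* from 1.55 to 1.72 and from 1.90 to 2.17. Differences that never passed changed sign in some fits that left out 1 library. *Serpinb1a* in heterozygotes against controls went to 0.049 without the heterozygous library of 9896345 reads. Without that of 7946683 reads *Serpinb8* and *Serpinb9b* in the same comparison went to 0.21 and 0.052, and *Serpinb6a* against heterozygotes to -0.029. *Serpinb9b* went to 0.048 against heterozygotes without the heterozygous library of 4294537 reads and to between -0.159 and 0.025 when 1 homozygote replicate was left out, and without the control library of 6698891 reads to 0.0014 in homozygotes and 0.097 in heterozygotes against controls. *Serpinb6a* went to -0.030 against controls without homozygote replicate 3, and to between -0.070 (without replicate 3) and 0.058 against heterozygotes when 1 homozygote replicate was left out. *Serpinb8*, *Serpinb1a* and *Serpinb9b* rest on 2 to 22 reads in each library, and filters on low values left some of these untested. Libraries with the same number did not deviate together (correlations -0.11 to 0.10), so the numbers were not taken to pair them. With the replicate block the members called were again 2, 2 and 0, the target proteases called against heterozygotes went from 2 to 1, and the genes called overall went from 2133 to 1756 against controls and from 1901 to 1553 against heterozygotes. The share of all genes called, set beside the counts in the report, moved further under other settings. Leaving out 1 library gave between 1049 (7.49%, without the control library of 6698891 reads) and 2084 genes against controls, with 1267 without homozygote replicate 3. Against heterozygotes it gave between 1023 (7.30%, without homozygote replicate 3) and 1859, with 1223 to 1268 without 1 heterozygous library. Limma without the trend called 1196 and 1063, and under it all 5 erythroid calls against controls and all calls of cardiomyocyte markers were lost. Those of *Alas2* and *Upk3b* against heterozygotes were lost under it too.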
